A study of Mus musculus with 6 samples.

Results

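Cadherins are calcium-dependent adhesion receptors that join like cell to like cell, and in the hindbrain they help keep the cells of a segment, a motor nucleus or a migrating crest stream together. Classical cadherins bind catenins through their cytoplasmic tail and so reach the actin cytoskeleton. Protocadherins share the extracellular cadherin repeats but not that tail, and the clustered ones give single neurons a surface identity. The genes described here are those whose symbol in the array annotation begins with Cdh and a digit or with Pcdh, other than Cdh5, the cadherin of endothelium. They number 46 genes, 16 Cdh and 30 Pcdh, read by 57 probe sets, of 12393 genes and 22626 probe sets in all. A further 6 probe sets list several protocadherin alpha genes at once and were not counted.

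Rhombomere 4, the hindbrain segment that Hoxb1 specifies, was dissected from E10.5 mouse embryos, and the tissue also held branchial arch material around it. The groups were normal (wild-type) embryos and Hoxb1 mutant embryos, with 3 arrays each. RNA came from pools of segments from several embryos, and the submitters call each sample an independent biological replicate. Allele, strain and embryo sexes were not given in the sources used here. At issue is which adhesion transcripts differ in this tissue when Hoxb1 is mutated.

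Values are deposited Affymetrix 430A intensities on a linear scale, given as mean ± SD (n = 3). Each difference is the mutant minus the wild-type mean of log2(intensity + 16), a scale that makes changes of dim probe sets look smaller, with the standard error (SE) of limma's moderated fit. A probe set was taken as above background where its mean over the 6 arrays passed 61.5, the 95th percentile of 27 probe sets for bacterial transcripts. Hoxb1 itself gave 341, 378 and 588 on wild-type arrays against 60.8, 35.3 and 50.03 on mutant arrays, so every mutant array was below that background (limma adjusted p 0.0695). Median intensities ran from 187 (mutant replicate 3) to 214 (mutant replicate 1), and signal for 18S ribosomal RNA was high on wild-type replicates 2 and 3 (mean log2 12.1 and 11.3, against 6.36 to 7.03 elsewhere). Progenitor (8 of 8 measured), neuronal (8 of 8), arch mesenchyme (9 of 9) and epithelial (10 of 10) markers had means above background. So did hindbrain (6 of 6), otic vesicle (4 of 4), crest glia (3 of 3) and branchial muscle markers (5 of 6). Endothelial (8 of 8), primitive erythroid (5 of 5) and macrophage (5 of 5) markers did as well. In such pools fewer cells of a type and less RNA per cell cannot be told apart.

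No cadherin or protocadherin transcript passed the test between Hoxb1 mutant and wild-type tissue. In limma's fit 0 of 57 probe sets passed an adjusted p of 0.05, as did 0% of all probe sets tested. An unadjusted p under 0.05 was reached by 2 members, 3.51%, against 5.76% of all probe sets. The groups did not overlap in 4 members, 7.02%, against 12.0% of all probe sets, 2 of them higher in mutants (background 4.88%) and 2 lower (background 7.08%). The mean was lower in mutants for 29 members, 50.9%, against 54.2% of all probe sets. The median difference was -0.0035 for the members and -0.02 for all probe sets. These shares moved to the other side of the background under other settings. With quantile normalization 4 members, 7.02%, had an unadjusted p under 0.05 against 5.99% of all probe sets, and 8, 14.0%, had no overlap against 12.1%. With median centring 4 had such a p, 7.02% against 5.45%, and with 18S signal as a covariate 5 did, 8.77% against 4.01%. The covariate fit rests largely on wild-type replicate 1, since 18S signal was high on wild-type replicates 2 and 3.

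Most of the family was dim. A mean above background was reached by 25 probe sets of 22 genes, and 24 probe sets were below background on all 6 arrays. Among the 25, 1 had an unadjusted p under 0.05 (background 5.27%) and groups without overlap (background 12.6%). The 95% confidence interval of the log2 difference lay within -1 and 1, a 2-fold change either way, for 22 of the 25. The other 3, one each of Pcdhb2, Pcdhb5 and Pcdh18, had wider intervals. Mutant replicate 1 was the highest of the 6 arrays for 20 of the 57 members and mutant replicate 3 the lowest for 18. Over all probe sets the same arrays had the highest and the lowest median intensity, at 214 and 187. Such counts were not taken over all probe sets, so they are not read as a trait of the members.

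**Figure D1:**
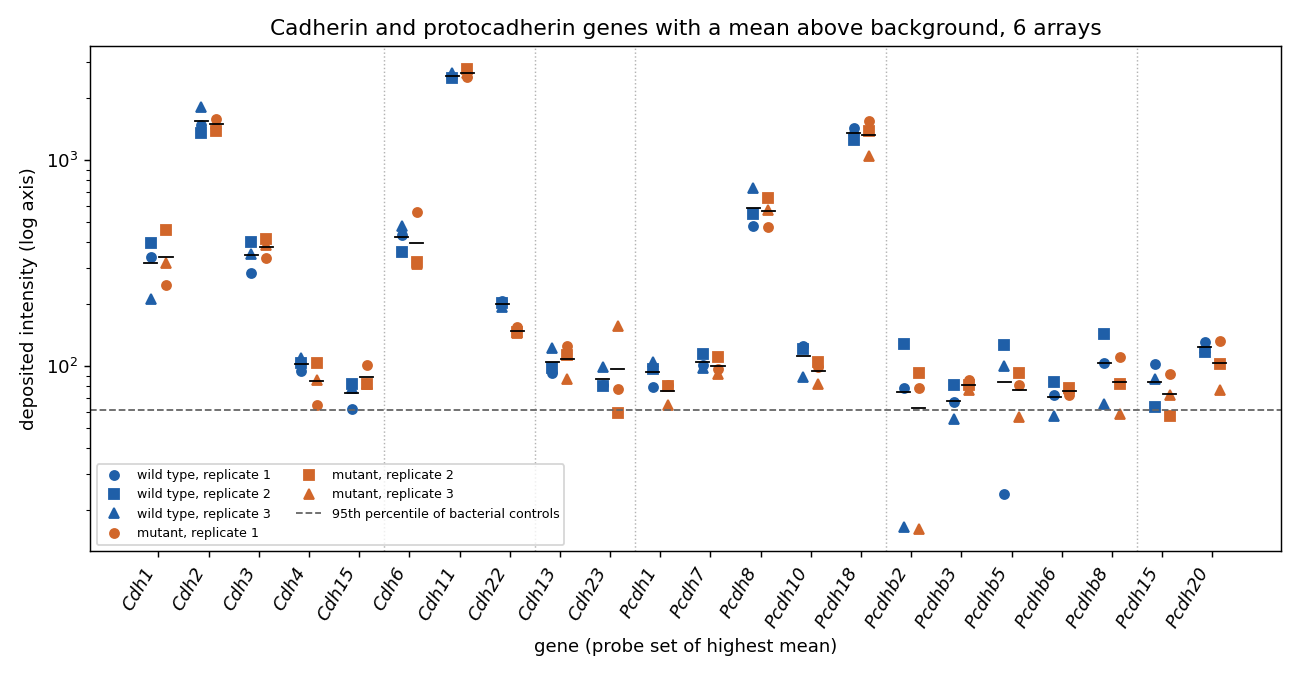
Deposited intensity (log axis) on each of the 6 arrays for the 22 genes with a probe set above background, 3 wild-type arrays in blue and 3 mutant arrays in orange, with black bars for group means and a dashed line at the bacterial 95th percentile of 61.5. Cdh22 is the gene whose groups do not overlap, and both replicate 3 arrays of Pcdhb2 lie near 16.

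Cdh22 (PB-cadherin), a type II cadherin of pituitary and brain, was the member of smallest p and the one that stood apart by genotype above background. Its probe set 1424767_at gave 208, 202 and 194 on wild-type arrays against 154, 147 and 145 on mutant arrays. Every mutant array was below every wild-type array, and the spread within each group was small. The means were 201 ± 6.97 and 149 ± 5.07, a mutant mean lower by 26.2%, and the log2 difference was -0.40 (SE 0.10, 95% interval -0.65 to -0.15). The limma p was 0.00653 before and 0.740 after adjustment over all probe sets, so Cdh22 missed the threshold. Over 18 alternative settings the difference stayed between -0.44 and -0.32, with an unadjusted p under 0.05 in 17 of them and an adjusted p of 0.416 to 1.00.

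Summed markers of 4 of 11 lists lay lower on mutant arrays without overlap beside Cdh22, both neural and crest ones. The summed intensity of 8 neural progenitor markers was 10285 to 11722 in wild type and 9277 to 10007 in mutants, without overlap, and 6 of the 8 had a lower mean. All 8 young neuron markers had a lower mean, with overlapping sums of 10131 to 11916 and 8121 to 10775. The 6 hindbrain markers, Hoxb1 among them, had sums of 2891 to 3185 and 2108 to 2489, without overlap. The sums of 9 arch mesenchyme markers (12061 to 13974 and 11401 to 11815) and 3 crest glia markers (1095 to 1254 and 1001 to 1048) did not overlap either. Singly, 3 of 8 progenitor, 3 of 6 hindbrain, 1 of 9 mesenchyme and 1 of 3 glia markers were lower without overlap (background 7.08%). Of the 3 glia markers 2 had a lower and 1 a higher mean. A lower mean was found in 54.2% of all probe sets, and the count of 4 lists has no such background. Whether these markers have a part in the Cdh22 result was not tested.

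Promoter sequence is shown for Cdh22, which differed most clearly by genotype, and for Pcdh18, which has 3 probe sets above background. Both come from RefSeq on GRCm38.p6, 5′ to 3′ on the gene's strand, trimmed to the bases before the outermost annotated start of the gene, with CpG dinucleotides in capitals. The Cdh22 stretch is chr2:165234925-165234987 and that of Pcdh18 is chr3:49757384-49757566, both on the minus strand.
Cdh22: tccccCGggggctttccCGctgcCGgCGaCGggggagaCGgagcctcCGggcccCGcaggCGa
Pcdh18: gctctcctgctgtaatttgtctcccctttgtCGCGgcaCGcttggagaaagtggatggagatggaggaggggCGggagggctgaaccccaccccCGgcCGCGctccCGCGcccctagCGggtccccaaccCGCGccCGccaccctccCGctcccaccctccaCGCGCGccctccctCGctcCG

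The stretches hold 9 CpG in 63 bases and 19 in 183. The full 300-base windows (250 before to 50 after the start) hold 38 and 23 CpG, more than 95% and 78.5% of 32851 mouse windows. Windows were matched for 14 member genes off chromosome 18. The Hox and Pbx motif TGATNNAT, searched on both strands, was found in the windows of Cdh9 and Cdh23, and in 8.85% of all windows. The E-box CACCTG, bound by Snail and Zeb repressors of Cdh1, was found in those of Pcdh7 and Pcdh15, and in 20.2% of all windows. Cdh1 itself was not among the 14 genes, so its promoter was not searched. Neither motif was found in the Cdh22 or Pcdh18 window.

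The classical type I cadherins, 5 genes with 7 probe sets, gave 3 higher and 4 lower means, with a median difference of -0.05, and 0 had an unadjusted p under 0.05. Cdh2 (N-cadherin), which holds the neuroepithelium together, was measured by a pair of probe sets. Probe set 1418815_at gave 1489, 1366 and 1820 on wild-type arrays against 1587, 1393 and 1511 on mutant arrays, and all mutant values lay inside the wild-type range. Its log2 difference was -0.05 (SE 0.14, 95% interval -0.39 to 0.29). The other, 1449244_at, gave 1135, 1019 and 1211 against 1061, 984 and 1016.5, with a difference of -0.13 (SE 0.12).

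Cdh1 and Cdh3 (E- and P-cadherin) mark the surface and pharyngeal epithelium that came with the arches. Cdh1 gave 338, 398 and 212 on wild-type arrays against 249, 457 and 316 on mutant arrays, a wide spread in both groups and a difference of 0.11 (SE 0.29). Cdh3 gave 283, 403 and 351 against 335, 414 and 388, a difference of 0.14 (SE 0.16). On both genes the replicate 2 array was the highest of its group. The summed intensity of 10 epithelial markers was 4018 to 4924 in wild type and 4248 to 4899 in mutants, also overlapping, and 5 of the 10 had a higher mean.

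Cdh4 (R-cadherin), a cadherin of brain segments and axon tracts, gave 95.2, 104 and 110 on wild-type arrays against 64.7, 103 and 85.9 on mutant arrays with probe set 1449422_at. The wild-type arrays were tightly grouped, and mutant replicate 2 lay among them. The difference was -0.26 (SE 0.17, limma p 0.164). A second probe set, 1449637_at, was lower on every mutant array, at 4.74, 5.89 and 5.74 against 4.05, 2.19 and 2.51, but lay below background on all 6 arrays and gives no measured change. Cdh15 (M-cadherin), found in muscle precursors, gave 62.3, 82.0 and 78.2 against 102, 82.4 and 81.6, a difference of 0.21 (SE 0.14). Mutant replicate 1 was the high array, and 6 branchial muscle markers had overlapping sums of 932 to 1124 and 940 to 1183.

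The type II cadherins were measured in 7 genes with 1 probe set each, of which Cdh6, Cdh11 and Cdh22 were above background. Their median difference was -0.13, with 3 higher and 4 lower means. Cdh11 (OB-cadherin), a cadherin of mesenchyme and cranial crest, gave 2555, 2523 and 2670.5 on wild-type arrays against 2534, 2782 and 2647 on mutant arrays, a difference of 0.04 (SE 0.11, 95% interval -0.21 to 0.29). All 9 arch mesenchyme markers had a lower mean, against 54.2% of all probe sets, with sums that did not overlap. Singly, 1 of the 9, Twist1, had groups without overlap, and 0 had an unadjusted p under 0.05. The Cdh11 groups overlapped, like those of the other mesenchyme markers taken singly.

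Cdh6, expressed in hindbrain segments and early crest, gave 435, 361 and 480 on wild-type arrays against 563, 321 and 313 on mutant arrays. Mutant replicate 1 was the highest of all 6 arrays and the other mutant arrays were the lowest, so the groups overlapped, with a difference of -0.13 (SE 0.25). Without mutant replicate 1 it was -0.40. The 4 other type II genes, Cdh8, Cdh9, Cdh10 and Cdh20, had means at or below background and differences of -0.42 to 0.36. Cdh20 passed background on 1 array, mutant replicate 2, at 69.4.

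Cdh13 and Cdh23 were above background among the cadherins outside those types, and Cdh16 and Cdh17 were below it on all 6 arrays. Cdh13 (T-cadherin), held in the membrane by a lipid anchor, gave 92.8, 98.1 and 123 on wild-type arrays against 126, 114 and 87.0 on mutant arrays, a difference of 0.04 (SE 0.17). The groups covered almost the same range. Cdh23, a cadherin of hair cell tip links, gave 81.0, 80.5 and 98.9 against 77.2, 59.0 and 156, a difference of 0.05 (SE 0.30), with both replicate 3 arrays the highest. Its other probe set, 1452028_a_at, had the opposite sign (-0.07, SE 0.18) and lay below background on all 6 arrays. Of 6 otic vesicle markers 4 were measured, with sums of 926 to 1077 and 791 to 965.

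**Figure D2:**
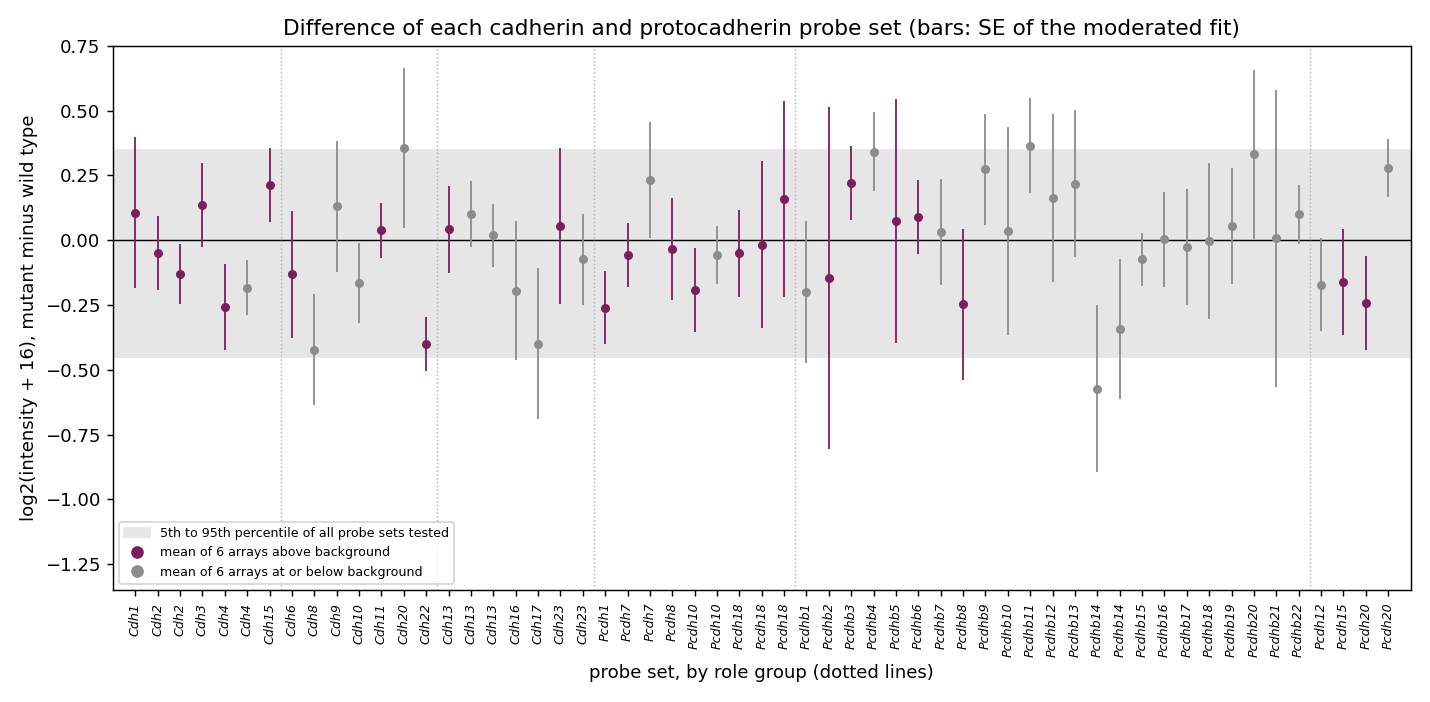
Log2 difference (mutant minus wild type, log2(intensity + 16)) of each of the 57 cadherin and protocadherin probe sets with its SE, by role group, with purple for means above background, grey for the rest, and a band for the 5th to 95th percentile of all probe sets. The points scatter on both sides of 0, from -0.57 to 0.36, and Cdh22 at -0.40 is the lowest of the purple points.

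The non-clustered delta protocadherins, which act in cell sorting and cell movement in the embryo, were measured in 5 genes with 9 probe sets. Of these 7 had a lower and 2 a higher mean in mutants, with a median difference of -0.05, and 0 had groups without overlap or an unadjusted p under 0.05. Pcdh8 (paraxial protocadherin) gave 478, 546 and 731 on wild-type arrays against 476, 654 and 572 on mutant arrays, a difference of -0.03 (SE 0.20). Its sign turned in 6 of the 18 alternatives. Pcdh1 gave 79.7, 96.8 and 105 against 81.2, 80.5 and 65.0, a difference of -0.26 (SE 0.14, limma p 0.111), with overlap through wild-type replicate 1. Pcdh10 gave 126, 121 and 88.4 against 99.2, 105 and 81.9 (-0.19, SE 0.16), and Pcdh7 gave 101, 114 and 97.8 against 96.8, 112 and 91.5 (-0.06, SE 0.12). Further probe sets of Pcdh7 and Pcdh10 were below background on all 6 arrays, and that of Pcdh7, 1427592_at, had the opposite sign (0.23, SE 0.22).

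Pcdh18 had 3 probe sets above background, and they did not rank the arrays alike. Probe set 1422889_at gave 1430, 1261 and 1401 on wild-type arrays against 1555, 1392 and 1050.1 on mutant arrays, with a difference of -0.05 (SE 0.17). Probe set 1422890_at gave 375, 374 and 225 against 486, 283 and 221. Probe set 1430427_a_at gave 209, 211 and 128 against 288, 261 and 106. In the latter pair both replicate 3 arrays were the lowest, whereas in the first wild-type replicate 3 lay among the others. By genotype their differences were -0.02 (SE 0.32) and 0.16 (SE 0.38).

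Among the other protocadherins Pcdh20 gave 131, 118 and 122 on wild-type arrays against 132, 103 and 77.0 on mutant arrays with probe set 1424701_at, a difference of -0.24 (SE 0.18). Its second probe set, 1451454_at, had an unadjusted limma p of 0.0420 (adjusted 0.833) and no overlap, but at 1.49, 1.39 and 1.86 against 7.39, 4.41 and 4.37 it lay far below background on all 6 arrays. Its direction is opposite to that of the first. Pcdh15, the tip-link partner of Cdh23, gave 102, 63.6 and 86.7 against 91.5, 57.2 and 72.2, a difference of -0.16 (SE 0.20). Pcdh12, a protocadherin of endothelium and trophoblast, was below background on all 6 arrays.

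The clustered protocadherins here were all of the beta cluster on chromosome 18, 22 genes with 23 probe sets. Each beta gene is a single exon similar in sequence to its neighbours, so a probe set may read more than 1 of them. By genotype 15 means were higher and 8 lower in mutants, where 54.2% of all probe sets had a lower mean. The median difference was 0.04, and 0 had an unadjusted p under 0.05. A mean above background was reached by 5 of them, 3 higher and 2 lower, and 11 were below background on all 6 arrays. Most of these signs thus come from probe sets at or below background. Pcdhb3 gave 67.4, 81.3 and 55.5 on wild-type arrays against 85.8, 81.2 and 76.7 on mutant arrays (0.22, SE 0.14), and Pcdhb6 gave 72.7, 83.5 and 57.4 against 72.3, 78.7 and 77.6 (0.09, SE 0.14). Pcdhb8 gave 104, 143 and 65.2 against 110, 81.9 and 58.5 (-0.25, SE 0.29). In these 3 genes wild-type replicate 3 was the lowest of its group.

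Pcdhb5 gave 23.9, 126 and 100.3 on wild-type arrays against 80.9, 93.2 and 57.0 on mutant arrays (0.07, SE 0.47), with wild-type replicate 1 far below the other arrays. Without that array the difference was -0.49. It was 1.13 (limma p 0.00510, adjusted 0.803) with 18S signal as a covariate and 1.20 without the 2 wild-type arrays of high 18S signal. In these settings the wild-type side rests largely or wholly on wild-type replicate 1, the low array here, so neither gives a change by genotype. Pcdhb4 was higher on every mutant array, at 33.7, 36.3 and 35.5 against 57.2, 54.6 and 36.8, but below background on all of them (0.34, SE 0.15, limma p 0.0622, adjusted 0.833). The beta genes of mean below background other than Pcdhb4 had overlapping groups.

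Replicate number was compared after the values were seen, and no member passed that test after adjustment. In a limma fit with genotype and replicate number, an F test for the number gave an unadjusted p under 0.05 for 8 members, 14.0%, against 5.49% of all probe sets, and an adjusted p under 0.05 for 0 members and 0% of all. The 8 were Pcdhb2, Pcdhb10, Pcdhb12, Pcdhb13, Pcdhb21, Pcdh15 and the latter pair of Pcdh18 probe sets. Both replicate 3 arrays lay below the other 4 in 10 members, 17.5%, against 9.42% of all probe sets, and above them in 1, 1.75%, against 6.02%. Of the 10, 6 were beta cluster genes.

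Pcdhb2 gave 78.8 and 129 in wild-type replicates 1 and 2 and 78.3 and 92.6 in mutant replicates 1 and 2, but 16.7 and 16.3 in both replicate 3 arrays. The 4 other arrays were above background and both replicate 3 arrays below it (F test p 0.000351, adjusted 0.761). Pcdhb21 gave 62.9, 70.2, 71.8 and 59.4 on those 4 arrays and 11.5 and 12.8 in replicate 3 (p 0.000469, adjusted 0.761). Each gene split the arrays the same way in both genotypes, with both replicate 3 arrays below background. The mean of Pcdhb21 was below background, as were those of Pcdhb10, Pcdhb12 and Pcdhb13, so that these values are near the limit of measurement. Pcdhb12 and Pcdhb13 also had both replicate 3 arrays lowest, with replicate 3 at 5.28 and 5.99 and at 24.3 and 26.1.

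Pcdh15 was among the 8 but ordered otherwise, with replicate 2 the lowest of each group. Across the 57 members the deviations of the replicate 3 arrays from their group means correlated at 0.55, those of replicate 1 at 0.13 and those of replicate 2 at 0.30. Pairs of unlike number ran from -0.44 to 0.24, and across all 22626 probe sets the same-number values were 0.04, 0.05 and -0.02. The beta cluster genes are similar in sequence and all members were read on the same 6 arrays, so this is a description. The 18S signal on the replicate 3 arrays was 11.3 in wild type and 6.50 in mutant, and both replicate 3 sums lay outside the other 4 on the same side in 0 of 11 marker lists. The part of either in the values by replicate number was not tested. What the replicate numbers share was not given in the sources used here.

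**Figure D3:**
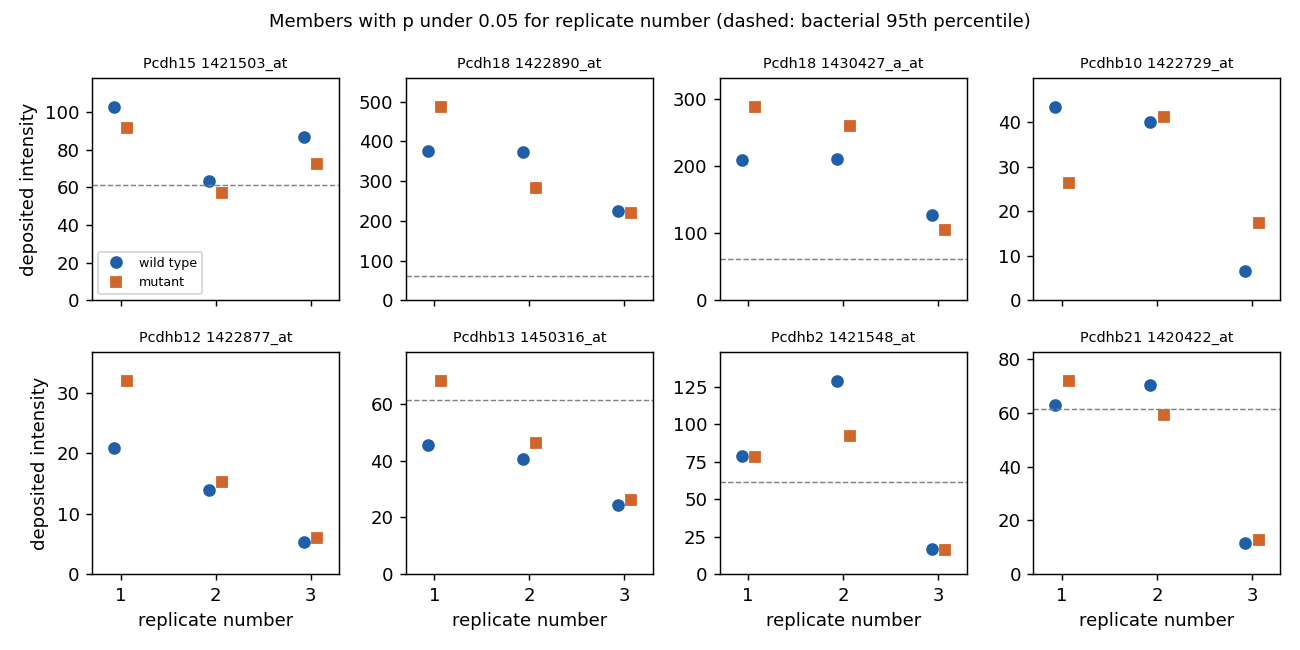
Deposited intensity by replicate number for the 8 member probe sets with an unadjusted F test p under 0.05 for that number, wild-type arrays as blue circles and mutant arrays as orange squares, with a dashed line at the background of 61.5 where it lies within the axis. Both replicate 3 arrays are the lowest in each panel except that of Pcdh15.

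Cadherins work through catenins, and the catenin and adaptor list, like the lists below, was measured at the probe set of highest mean per gene. Of 9 genes measured 5 had a higher and 4 a lower mean in mutants, with a median difference of 0.04. An unadjusted p under 0.05 was reached by 0 higher (background 1.88%) and 1 lower gene (background 3.88%). Ctnnb1 (beta-catenin), the link from cadherin to alpha-catenin, gave 8539, 7158 and 7805 on wild-type arrays against 8429, 7584 and 8179 on mutant arrays, a difference of 0.04 (SE 0.12). Ctnna1 gave 3791 ± 252 and 3995 ± 322, and Ctnnd1 (p120), which steadies cadherins at the membrane, gave 492 ± 14.0 and 469 ± 51.8. The lower gene was Ctnnd2 (delta-catenin), the neuronal relative of p120, at 379, 378 and 453 against 301, 319 and 269 (-0.42, SE 0.13, limma p 0.0147, adjusted 0.833). Groups did not overlap for 2 lower genes (background 7.08%) and 2 higher ones (background 4.88%) of the 9. These were Ctnnd2 and Arvcf (-0.28, SE 0.13), another p120 relative, on the lower side, and Pkp4 (0.11, SE 0.11) and Vcl (0.22, SE 0.11) on the higher side.

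Of the more distant members of the cadherin superfamily 11 genes were measured, and 8 had a lower mean, with a median difference of -0.43, and an unadjusted p under 0.05 was reached by 5 lower genes and 1 higher gene, against the same backgrounds of 3.88% and 1.88%. The count of 5 includes Dsc1, which was below background on all 6 arrays. None passed after adjustment in limma (smallest adjusted p 0.498, that of Dsc1). Groups did not overlap for 5 lower genes (background 7.08%) and 1 higher gene (background 4.88%) of the 11. Those lower were Clstn1, Celsr1, Celsr2, Dsc1 and Dsc3, and the higher gene was Dsg2. Celsr1 gave 308 ± 21.0 in wild type and 248 ± 26.1 in mutants (-0.29, SE 0.13). Clstn1 (calsyntenin), a vesicle cargo adaptor of neurons, gave 797, 932 and 1027 on wild-type arrays against 597, 666 and 581 on mutant arrays (-0.56, SE 0.14). Clstn2 gave 164 ± 39.4 and 112 ± 10.2, with overlap, and Celsr2, a planar polarity cadherin, gave 795 ± 123 and 584 ± 73.4. The desmosomal genes went both ways. Dsc3 gave 86.0, 125 and 86.3 against 70.9, 62.4 and 64.1, Dsc1 gave 39.7, 37.2 and 39.4 against 20.2, 19.7 and 21.1, and Dsg2 was higher, at 170, 164 and 154 against 214, 197 and 218 (0.34, SE 0.11).

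Of 8 regulators of cadherin expression and shedding, 5 had a lower mean, 1 had an unadjusted p under 0.05 (lower, background 3.88%) and 2, Tcf3 and Twist1, were lower without overlap (background 7.08%). Tcf3 (E2A), an E-box factor that can repress Cdh1, gave 2073, 2357 and 2590 on wild-type arrays against 1510, 1824 and 1887 on mutant arrays (-0.42, SE 0.14, limma p 0.0226, adjusted 0.833). Twist1, a crest mesenchyme factor that can repress Cdh1, gave 1100 ± 150 and 868 ± 71.2 (-0.33, SE 0.14). Snai2 gave 132 ± 46.3 and 137 ± 52.6, and Adam10, the protease that sheds cadherins, gave 1298 ± 204 and 1347 ± 166. Cdh5, left out of the family by rule, gave 334 ± 40.6 and 267 ± 14.4 without overlap, and 140 ± 35.7 and 136 ± 27.7 in its other probe set.

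**Figure D4:**
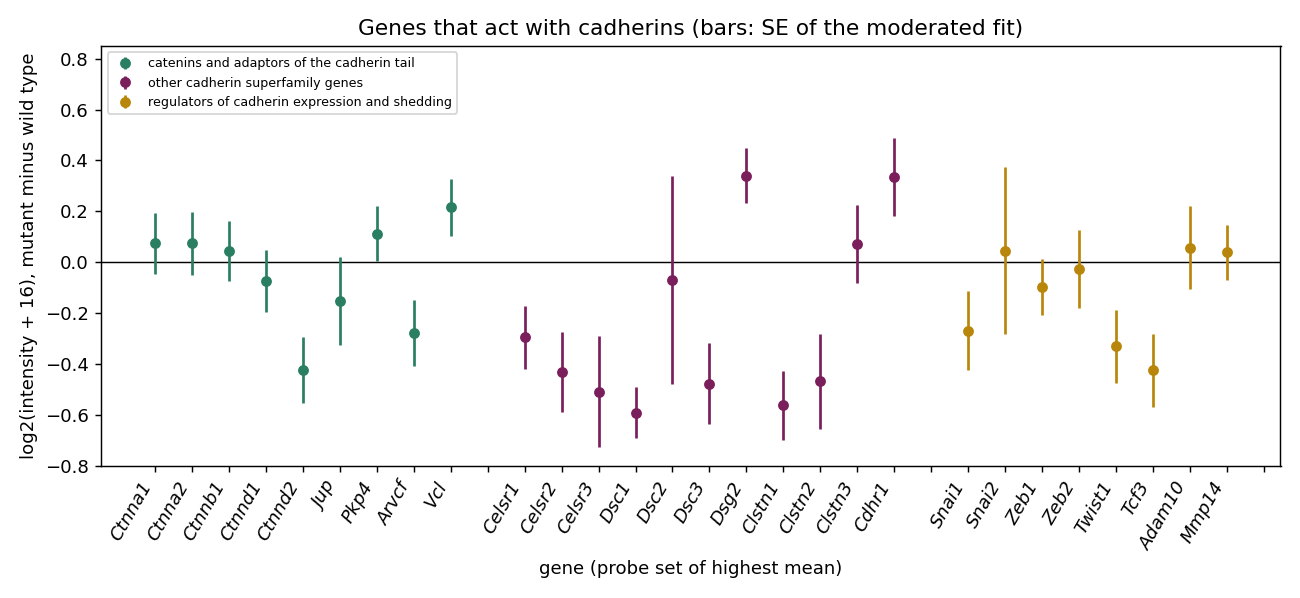
Log2 difference (mutant minus wild type, log2(intensity + 16)) with its SE for 28 catenins and adaptors, other cadherin superfamily genes and regulators, at the probe set of highest mean per gene. Ctnnb1 (0.04) and Ctnna1 (0.07) lie near 0, Ctnnd2 (-0.42), Clstn1 (-0.56) and Tcf3 (-0.42) lie below it, and Dsg2 lies at 0.34.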

How the data were processed

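Values are deposited intensities, linear, with 1 value for each probe set on each array. The authors' processing names the tool affy, per the submitters' processing notes. Version and expression algorithm were not given in the sources used here. On each array the mean with 2% trimmed at each end is 500.0, and no further normalization was applied. The 64 control probe sets were left out and 22626 tested. Symbols came from the platform annotation, updated by Entrez identifier, which matched all 57 member probe sets. Intensities were taken to log2(intensity + 16) and fitted in R 4.3.3 with limma 3.58.1 (eBayes without trend, 2-sided, no covariates). Benjamini-Hochberg adjustment took in all tested probe sets, at a threshold of 0.05. The step was tested on simulated data. The number of arrays limits the precision. Shown in full are members with an unadjusted p under 0.05 or groups without overlap, and each gene's probe set of highest mean where it passed background. Of the lists of related genes, those with an unadjusted p under 0.05 are shown, and otherwise up to 4 of smallest p. Ctnnb1, Ctnna1, Ctnnd1, Snai2, Adam10, Cdh5, Pcdhb10, Pcdhb12, Pcdhb13 and Pcdhb21 were named after their values were seen. Members and lists were chosen with earlier results of these data known.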

Additional observations from a re-analysis of the deposited data

How the results depend on the processing

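In limma 0 members passed an adjusted p of 0.05 under any of 18 alternatives, 1 of them (leaving out both wild-type arrays of high 18S signal) chosen after seeing the data, as were the alternatives for the count by replicate number. The members with an unadjusted p under 0.05, 2 in the fit reported, numbered 4 with quantile normalization, 4 with median centring and 5 with the 18S covariate. They numbered 1 each with pseudocount 64, with trend and robust settings, without the dimmest probe sets, without those at or below background, and with 1 probe set per gene. They numbered 3 each with pseudocount 1 (5.26% against 5.47% of all probe sets) and with array weights (5.26% against 9.25%). Among the settings that keep all 6 arrays, members exceeded the share of all probe sets with quantile normalization, median centring and the covariate. The fit without both wild-type arrays of high 18S signal was left out of this comparison, as 1 wild-type array is left. The covariate fit rests largely on wild-type replicate 1, the wild-type array of low 18S signal. Leaving out each array gave 1 to 4, the latter without wild-type replicate 2 (7.02% against 4.89%), and the share was also above that of all probe sets without mutant replicate 2 (5.26% against 4.68%). With the replicate number as a block it was also 1, Cdh22. Same-numbered arrays carry matching codes in their titles, which do not say what they share. Over all 22626 probe sets they deviated together at only 0.05, -0.02 and 0.04, and not every array correlated best with its own number. On that ground the fit reported was left unpaired. Over the 57 members the values were higher, at 0.13, 0.30 and 0.55, so a pairing of the samples is not excluded. The block moved the p of Pcdhb2 from 0.831 to 0.363 at the same difference. The members without overlap, 4 as reported, numbered 8, 7, 1, 1 and 2 with quantile normalization, median centring, the 2 filters and 1 probe set per gene. They numbered 23 without both wild-type arrays of high 18S signal, where 1 wild-type array is left (40.4% against 44.0% of all probe sets). Without each array in turn they numbered 6 to 13. Their share was above that of all probe sets without mutant replicate 2 (22.8% against 19.3%) and without wild-type replicate 2 (21.1% against 20.8%). It was below that share without each of the other arrays. Members with an unadjusted F test p under 0.05 for replicate number, 8 of 57 as reported, numbered 5 without probe sets at or below background. In that fit 25 members entered, and the share of all probe sets was not taken, so the count of 5 has no background beside it. The cause was not tested, beyond fewer probe sets or arrays entering where they were left out. The median difference moved by less than the spread between arrays under all of these. Of 25 named probe sets 14 kept their sign throughout, but several of these moved by over 1.5 times without 1 array: Cdh3 from 0.0066 (wild-type replicate 1) to 0.25 (wild-type replicate 2), Cdh4 from -0.39 (mutant replicate 2) to -0.11 (mutant replicate 1), Cdh15 to 0.12 (wild-type replicate 1) and 0.13 (mutant replicate 1), Pcdh10 from -0.33 (wild-type replicate 3) to -0.10 (mutant replicate 3), Pcdh15 from -0.32 (wild-type replicate 2) to -0.022 (mutant replicate 2), Pcdh20 from -0.41 (mutant replicate 1, p 0.0378) to -0.071 (mutant replicate 3), Pcdhb3 from 0.11 (wild-type replicate 3) to 0.33 (wild-type replicate 2) and Pcdhb8 from -0.50 (wild-type replicate 3) to -0.019 (wild-type replicate 2). Signs turned for Cdh1 with the 18S covariate (-0.0034) and without those arrays (-0.031), Cdh2 with median centring (0.0044) and without those arrays (0.0053), Pcdh18 with median centring (0.0035), Cdh23 with array weights (-0.048), and Pcdh8 with median centring (0.020), array weights (0.13), the covariate (0.15) and without those arrays (0.23). Leaving out each array, differences ran from -0.14 to 0.30 for Cdh1, -0.14 to 0.067 for Cdh2, -0.40 to 0.011 for Cdh6, -0.056 to 0.17 for Cdh13, -0.29 to 0.31 for Cdh23, -0.13 to 0.0020 for Pcdh7, -0.16 to 0.13 for Pcdh8, -0.17 to 0.11 for Pcdh18, -0.76 to 0.40 for Pcdhb2, -0.49 to 0.43 for Pcdhb5 and -0.028 to 0.19 for Pcdhb6.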
